A study of Mus musculus with 9 samples.

Results

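Replication-dependent histone genes encode the linker histone H1 and the core histones H2A, H2B, H3 and H4 of newly made chromatin. They were taken as every gene whose symbol begins with Hist1h, Hist2h, Hist3h or Hist4h in the table that pairs array probe sets with genes. A gene was the mean log2 value of its probe sets that carry exactly 1 gene symbol. This gave 40 histone genes of 20422 genes in all, 5 of them for H1, 10 for H2A, 10 for H2B, 5 for H3 and 10 for H4. By locus, 31 belong to Hist1 on chromosome 13, 6 to Hist2 on chromosome 3, 2 to Hist3 on chromosome 11 and 1 to Hist4 on chromosome 6 (RefSeq, GRCm38.p6). A further 22 histone symbols occur only on probe sets that name several genes, and these were described by probe set.

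RNA was measured on 9 Affymetrix mouse gene arrays, 3 for each of 3 groups. ME cells were mammary epithelial cells used fresh from the gland, without reprogramming. D-ME-iPSCs and D-TF-iPSCs were induced pluripotent stem cells (iPSCs) made from ME cells and from tail-tip fibroblasts (TFs), both after a 2-step protocol of 3 and 6 days that favours mammary epithelial cells. The study's methods give virgin females of 2 and 6 months as the source of ME cells and mice of 2 months as the source of the fibroblasts, with Oct4, Sox2, Klf4 and c-Myc brought in by retrovirus; the sex of the fibroblast donors is not stated there. In the implantation experiments the donor cells carried a beta-galactosidase gene, and whether the cells on the arrays did is not given. D-ME-iPSCs and D-TF-iPSCs thus share the factors and the protocol and differ in the cell of origin, while ME cells had neither. The labels do not say whether the 3 arrays of a group came from separate animals, iPSC lines or cultures, so the p-values measure the spread between arrays, which may be technical.

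Histone mRNAs of this family are made in bulk during S phase, when new DNA must be packed into nucleosomes, and are degraded when replication ends. Most end in a stem-loop bound by SLBP in place of a poly(A) tail, and a body built around NPAT at the gene clusters couples their transcription to the cell cycle. Some genes, several of the H2B genes among them, can also give polyadenylated RNA in cells that have left the cycle. The sources used here do not give the primer with which the RNA was copied for the arrays, so how well tailless histone mRNA was captured is unknown.

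ME replicate 1 stood apart from the other ME arrays. Over all genes it correlated at 0.92 and 0.943 with ME replicates 2 and 3, and at 0.991 to 0.993 with the D-ME-iPSC arrays. Results that rest on it are therefore given with and without it. The labels otherwise matched their markers. Of 12 mammary epithelial markers, 11 in ME cells and 10 in D-ME-iPSCs were higher than in D-TF-iPSCs, and their mean log2 level was 10.46 to 10.88 in ME cells, 10.49 to 10.50 in D-ME-iPSCs and 7.97 to 8.21 in D-TF-iPSCs. Of 10 fibroblast markers, 9 and 7 were lower, with mean levels of 8.99 to 9.57, 9.54 to 9.58 and 10.94 to 11.02. None of 9 pluripotency markers passed the test in either comparison, and their mean level was 5.86 to 6.18 on all arrays. With ME replicate 1 left out, 12 and 11 mammary markers were higher, 9 and 9 fibroblast markers were lower with 1 higher in ME cells, and 2 pluripotency markers were higher in ME cells and 0 in D-ME-iPSCs. Because these are RNAs of whole cell populations, fewer cells of a type and less RNA per cell cannot be told apart, and the part that the mix of cell types or the share of dividing cells had in the histone values was not tested.

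Hist1 genes stood mostly above their D-TF-iPSC level in both other groups. Relative to D-TF-iPSCs, 29 of the 31 Hist1 genes had a positive log2 difference in ME cells and 27 in D-ME-iPSCs, with a median of 0.31 in each. The median over all genes was 0.01 and -0.01. Leaving out ME replicate 1 gave 28 positive differences in ME cells with a median of 0.49, where the median over all genes was 0.04. Of the 6 Hist2 genes, 2 had a positive difference in each comparison, with medians of -0.13 and -0.18 (-0.20 in ME cells without ME replicate 1). Called genes are those that reached a limma p under 0.05 in a fit of the 9 arrays by group, once adjusted by Benjamini and Hochberg's method for the 20422 genes tested.

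In ME cells against D-TF-iPSCs, 8 of the 40 histone genes were called, 7 higher and 1 lower, where the test called 16.3% of all genes, 7.5% as higher and 8.78% as lower. In D-ME-iPSCs against D-TF-iPSCs, 6 were called, 5 higher and 1 lower, where the test called 13.3% of all genes, 6.83% as higher and 6.45% as lower. The share of histone genes called higher was thus above that of all genes in both comparisons. The share called lower was below it, each by a few genes. With all arrays every higher call lay in Hist1, which holds 31 of the 40 genes. Both comparisons use the same D-TF-iPSC arrays, so they are not independent of each other. Without ME replicate 1, 14 histone genes were called higher and 2 lower in ME cells, beside 16.4% and 22.8% of all genes. Of these 14, 1 lay in Hist2, Hist2h4. Without that array 12 were called higher and 2 lower in D-ME-iPSCs, beside 15.5% and 12.8% of all genes. All of the 8 and 6 genes called with it were also called without it. The differences of D-ME-iPSCs from D-TF-iPSCs use no ME array and could not change. The test also called more of all genes without that array, so keeping these calls is no separate check.

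Counts of genes whose arrays did not overlap stood the same way to all genes, above them for higher and below them for lower. In ME cells, 13 histone genes had all 3 arrays above all 3 D-TF-iPSC arrays and 1 had all 3 below, beside 14.4% and 14.9% of all genes. In D-ME-iPSCs, 15 had all 3 arrays above and 2 had all 3 below, beside 25.2% and 23.2% of all genes. The median SD over the 3 arrays of a group was 0.26 for histone genes in ME cells and 0.15 in both iPSC-derived groups, against 0.26, 0.09 and 0.09 for all genes.

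**Figure D1:**
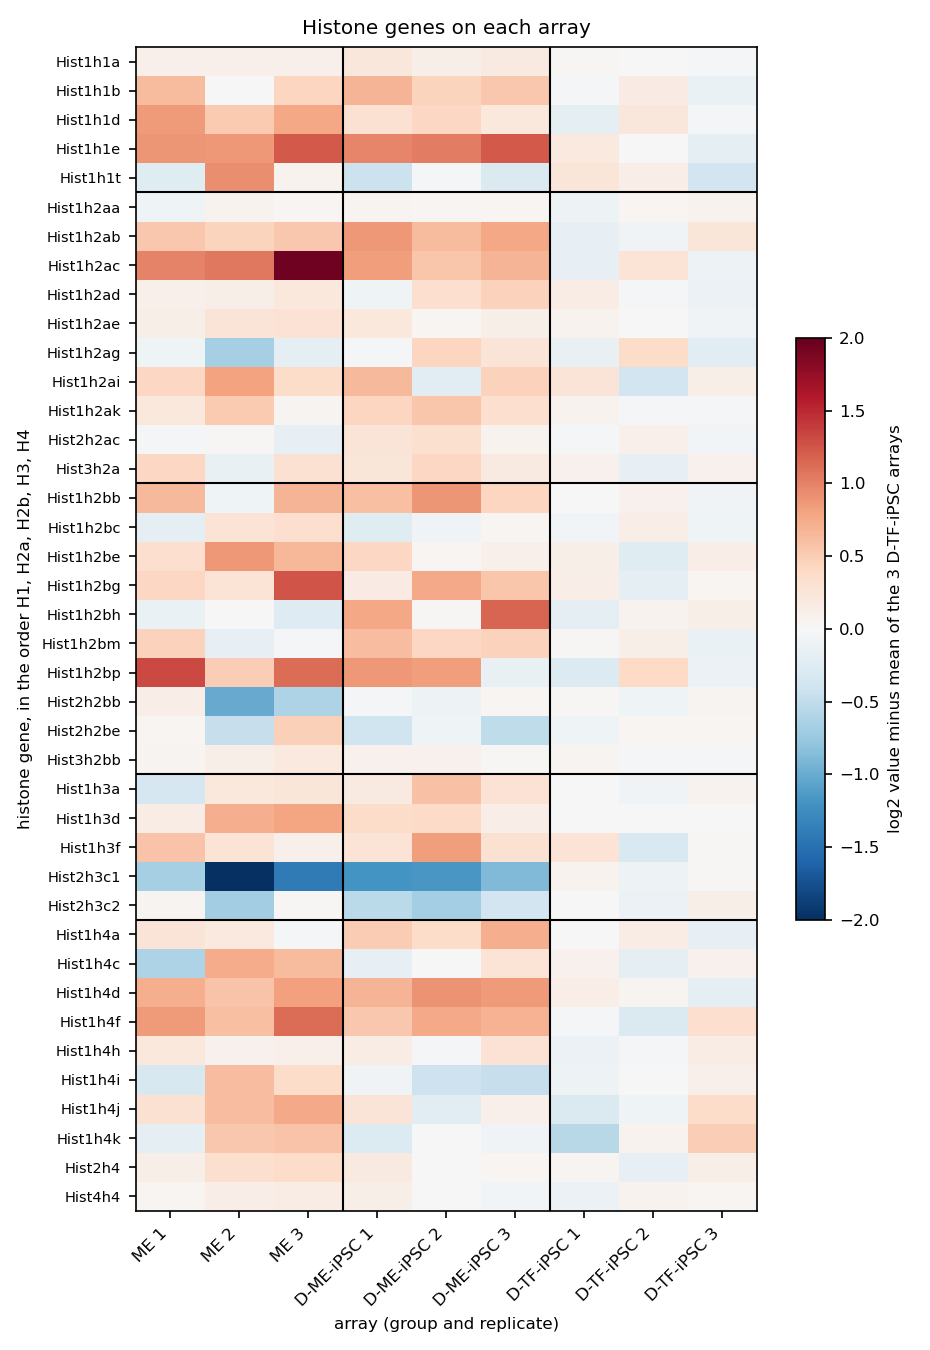
Each cell is the log2 value of 1 histone gene (rows, in the order H1, H2a, H2b, H3, H4) on 1 array (columns) minus the mean of the 3 D-TF-iPSC arrays, with red above and blue below that mean. Hist1h1e and Hist1h4d are red on all 6 ME and D-ME-iPSC arrays, and Hist2h3c1 is blue on all 6.

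Of the 5 linker histone genes, 2 rose in ME cells and 1 of these also in D-ME-iPSCs. H1 binds the DNA that enters and leaves the nucleosome. Hist1h1e (H1f4 in RefSeq) had log2 values of 8.91, 8.90 and 9.25 in ME cells, 9.00, 9.06 and 9.25 in D-ME-iPSCs and 8.23, 8.02 and 7.84 in D-TF-iPSCs. Every ME and D-ME-iPSC array thus lay above every D-TF-iPSC array. The log2 difference from D-TF-iPSCs was 0.99 ± 0.14 (SE, n = 3 arrays a group; limma adjusted p = 0.0017) in ME cells, a 1.99-fold rise, and 1.08 ± 0.14 (limma adjusted p = 0.0013) in D-ME-iPSCs, a 2.11-fold rise. Of its 4 probe sets, 3 passed the test alone in both comparisons. The fourth did not, with -0.09 in ME cells and 0.29 in D-ME-iPSCs.

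Hist1h1d (H1f3), another somatic H1 gene, stood at 6.29, 5.96 and 6.21 in ME cells, 5.75, 5.85 and 5.66 in D-ME-iPSCs and 5.25, 5.67 and 5.41 in D-TF-iPSCs. The ME arrays lay above all others, and the D-ME-iPSC range met that of D-TF-iPSCs. It was higher in ME cells by 0.71 ± 0.14 (SE; limma adjusted p = 0.0080), and the 0.31 ± 0.14 in D-ME-iPSCs did not pass (limma adjusted p = 0.20). That call came from 1 of its 2 probe sets, at 1.34 against 0.07 in the other. Hist1h1b (H1f5), also a somatic H1 gene, gave 7.97, 7.35 and 7.76 in ME cells, 8.02, 7.78 and 7.88 in D-ME-iPSCs and 7.30, 7.50 and 7.21 in D-TF-iPSCs. Its D-ME-iPSC arrays lay above D-TF-iPSCs and its ME arrays overlapped them. The difference in D-ME-iPSCs, 0.56 ± 0.16, missed the threshold with all arrays (limma adjusted p = 0.053) and passed without ME replicate 1 (limma adjusted p = 0.0088). Hist1h1a differed by 0.10 and 0.18 with neither called. Hist1h1t, the H1 of testis, ranged from 4.80 to 6.17 over all arrays without a call, and none of 8 testis germ cell markers was called either.

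**Figure D2:**
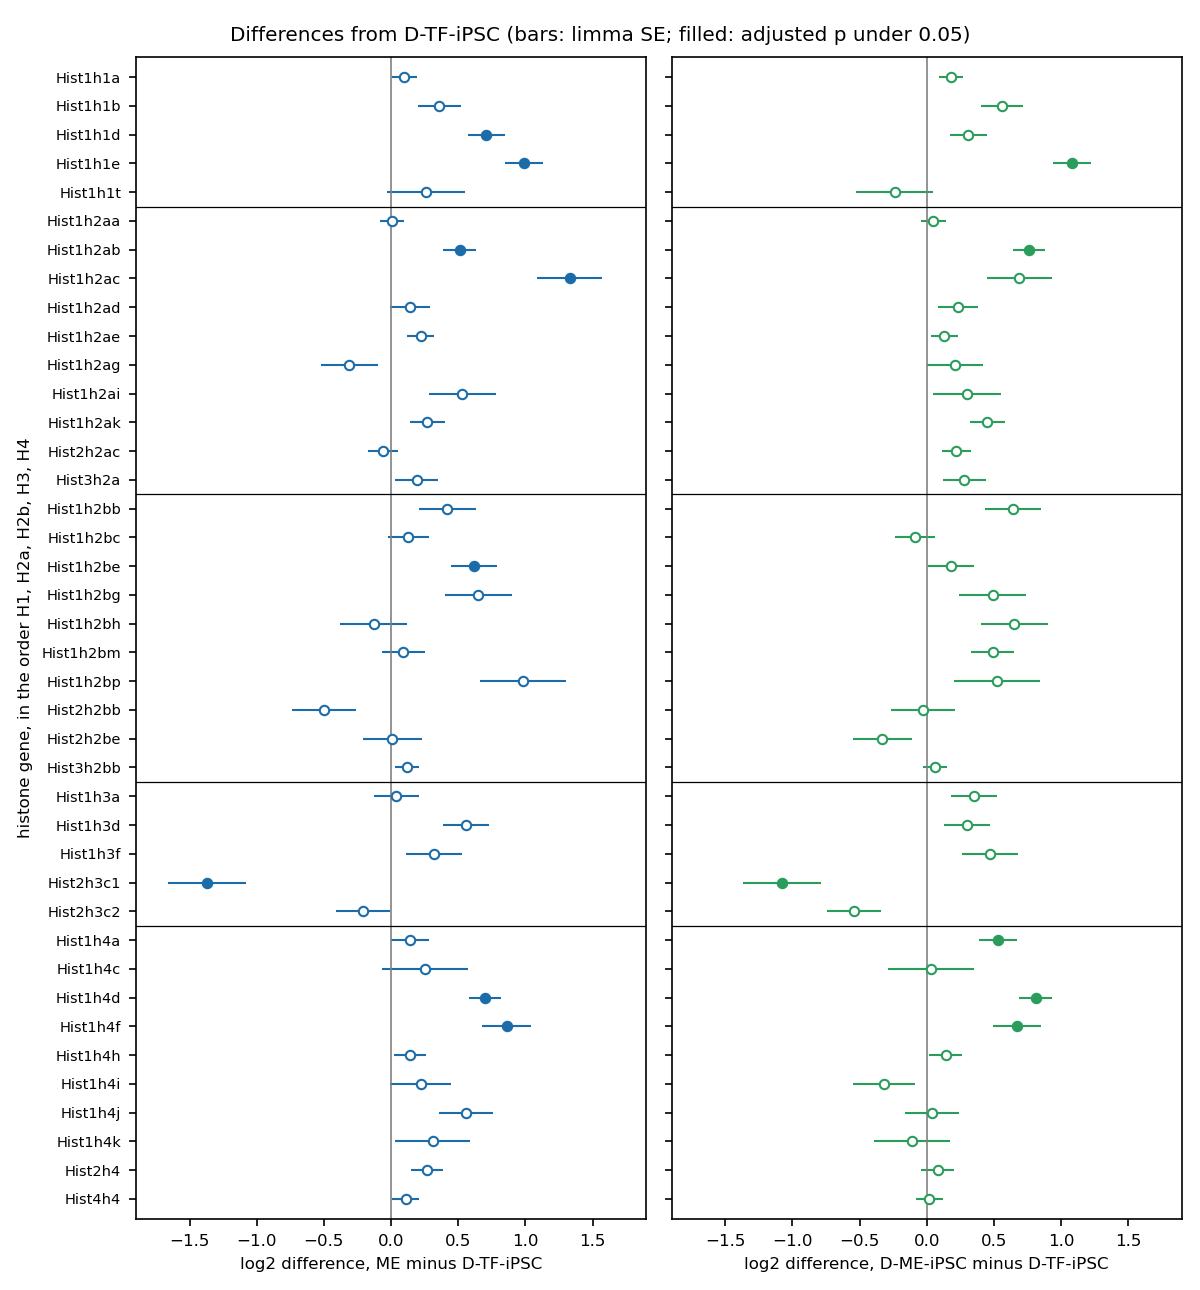
Points are log2 differences of the 40 histone genes from D-TF-iPSCs for ME cells (left) and D-ME-iPSCs (right), bars are limma standard errors and filled points have an adjusted p under 0.05. Most points lie right of 0, led by Hist1h2ac at 1.33 in ME cells and Hist1h1e at 1.08 in D-ME-iPSCs, and Hist2h3c1 lies farthest left at -1.37 and -1.08.

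H2A genes gave positive differences in 8 of 10 cases in ME cells and in 10 of 10 in D-ME-iPSCs, with medians of 0.21 and 0.26. H2A pairs with H2B in the outer parts of the nucleosome core. Hist1h2ab stood at 5.26, 5.16 and 5.26 in ME cells, 5.58, 5.35 and 5.49 in D-ME-iPSCs and 4.55, 4.64 and 4.95 in D-TF-iPSCs. Its 3 groups did not overlap, with D-ME-iPSCs on top and D-TF-iPSCs at the bottom. It rose by 0.51 ± 0.12 (SE; limma adjusted p = 0.022) in ME cells and by 0.76 ± 0.12 (limma adjusted p = 0.0037) in D-ME-iPSCs. The ME call was lost without ME replicate 3, D-TF-iPSC replicate 1 or D-TF-iPSC replicate 2 (adjusted p 0.058 to 0.096), and the D-ME-iPSC call held without any single array.

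Hist1h2ac had the largest rise of all 40 genes in ME cells. Its values were 5.43, 5.49 and 6.38 in ME cells, 5.27, 4.99 and 5.12 in D-ME-iPSCs and 4.27, 4.71 and 4.34 in D-TF-iPSCs. The groups did not overlap, with ME cells highest, ME replicate 3 above the other ME arrays and D-TF-iPSCs lowest. The difference was 1.33 ± 0.24 (SE; limma adjusted p = 0.0059) in ME cells and 0.69 ± 0.24 (limma adjusted p = 0.10) in D-ME-iPSCs, which passed without ME replicate 1 (limma adjusted p = 0.034). It came from 1 of 2 probe sets, at 7.47, 8.00 and 9.30 in ME cells and 5.27, 6.19 and 5.83 in D-TF-iPSCs, while the other stayed between 2.86 and 3.45 on every array.

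The other H2A genes were not called with all arrays. Hist1h2ak, at 0.45 ± 0.13 in D-ME-iPSCs (limma adjusted p = 0.054), passed there without ME replicate 1 (limma adjusted p = 0.021). Hist1h2ae, at 0.22 ± 0.10 in ME cells (limma adjusted p = 0.18), was 0.28 and passed without that array (limma adjusted p = 0.038). Hist1h2ai differed by 0.53 ± 0.25 and 0.30 ± 0.25 (limma adjusted p = 0.20 and 0.56), and Hist1h2ag was the H2A gene with the lowest difference in ME cells, -0.31 ± 0.21. Hist1h2aa, the H2A form of testis, lay between 7.67 and 7.84 on all 9 arrays. Hist2h2ac lay between 2.78 and 3.26, near the lowest value on any array. Hist3h2a gave 7.70, 7.14 and 7.60 in ME cells, 7.53, 7.71 and 7.47 in D-ME-iPSCs and 7.38, 7.12 and 7.37 in D-TF-iPSCs. Only its D-ME-iPSC arrays lay apart from D-TF-iPSCs, by 0.28 ± 0.16 (limma adjusted p = 0.34), and 2 of its 5 probe sets hold identical values.

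H2B genes gave positive differences in 8 of 10 cases in ME cells and in 7 of 10 in D-ME-iPSCs, with medians of 0.13 and 0.33. In ME cells the count was 7 and the median 0.23 without ME replicate 1. Hist1h2be was the H2B gene called, at 6.23, 6.76 and 6.56 in ME cells, 6.30, 5.93 and 6.00 in D-ME-iPSCs and 6.01, 5.65 and 6.02 in D-TF-iPSCs. The ME arrays lay above the D-TF-iPSC arrays, and the D-ME-iPSC arrays overlapped both. Its difference of 0.62 ± 0.17 in ME cells (SE; limma adjusted p = 0.038) was close to the threshold. It was lost in 7 of the 9 fits that left out an array, those without ME replicate 2 or 3, D-ME-iPSC replicate 2 or 3 or any D-TF-iPSC replicate (adjusted p 0.058 to 0.15), and was 0.77 without ME replicate 1 (limma adjusted p = 0.0028). In D-ME-iPSCs it differed by 0.18 ± 0.17.

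Several H2B genes had large differences that did not pass. Hist1h2bp gave 5.79, 4.97 and 5.60 in ME cells, 5.35, 5.31 and 4.33 in D-ME-iPSCs and 4.20, 4.87 and 4.36 in D-TF-iPSCs. Its ME arrays lay above D-TF-iPSCs by 0.98 ± 0.32 (limma adjusted p = 0.068), and D-ME-iPSC replicate 3 lay among the D-TF-iPSC arrays. Hist1h2bg differed by 0.65 ± 0.25 in ME cells (limma adjusted p = 0.12; 0.77 and 0.042 without ME replicate 1) and by 0.49 ± 0.25 in D-ME-iPSCs. Hist1h2bh, at 7.67, 6.93 and 8.07 in D-ME-iPSCs against 6.72, 6.97 and 7.02 in D-TF-iPSCs, overlapped through D-ME-iPSC replicate 2. Its 2 probe sets differed by 0.21 and 1.10 in that comparison. Hist1h2bb was above D-TF-iPSCs on all D-ME-iPSC arrays, by 0.64 ± 0.21 (limma adjusted p = 0.079), and passed without ME replicate 1 (limma adjusted p = 0.027). In ME cells Hist1h2bb differed by 0.42 ± 0.21 (limma adjusted p = 0.22). Hist1h2bm, on 1 probe set at 8.51 to 9.28, was above D-TF-iPSCs on all D-ME-iPSC arrays, by 0.49 ± 0.16 (limma adjusted p = 0.086; 0.0042 without ME replicate 1). In ME cells it differed by 0.09 ± 0.16.

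H2B genes outside Hist1 were not called higher. Hist2h2bb gave 7.11, 5.97 and 6.36 in ME cells, 6.95, 6.88 and 7.02 in D-ME-iPSCs and 7.01, 6.90 and 7.03 in D-TF-iPSCs. ME replicates 2 and 3 were below all other arrays, and ME replicate 1 was near the iPSC-derived arrays. The difference was -0.50 ± 0.24 in ME cells with all arrays (limma adjusted p = 0.21) and -0.81 without ME replicate 1 (limma adjusted p = 0.00053). Its 3 probe sets were all negative in ME cells, from -0.84 to -0.19. In D-ME-iPSCs they disagreed, with 1 at -0.77 and the others at 0.48 and 0.20, so the near-equal means of the iPSC-derived groups average opposed values. Hist2h2be lay between 6.41 and 7.40 with differences of 0.01 ± 0.22 and -0.33 ± 0.22, and Hist3h2bb, a transcribed pseudogene in RefSeq, between 6.22 and 6.45. The 4 histone genes annotated in RefSeq over more than 1000 bases, far longer than a histone coding sequence, are all H2B genes. They are Hist1h2be, Hist1h2bp, Hist1h2bc and Hist2h2be, and Hist1h2bc differed by 0.13 ± 0.15 and -0.09 ± 0.15.

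Of the 5 H3 genes, 3 had a positive difference of the gene mean in each comparison, and the 2 negative ones were both of Hist2. Hist2h3c1, an H3 gene of the Hist2 locus, stood at 8.98, 7.59 and 8.23 in ME cells, 8.44, 8.48 and 8.75 in D-ME-iPSCs and 9.71, 9.54 and 9.67 in D-TF-iPSCs. All D-TF-iPSC arrays were above all others, and ME replicate 2 was lowest. It was the histone gene called lower, with -1.37 ± 0.29 in ME cells (SE; limma adjusted p = 0.011), 2.59-fold, and -1.08 ± 0.29 in D-ME-iPSCs (limma adjusted p = 0.037), 2.12-fold. Without ME replicate 1 the differences were -1.73 (limma adjusted p = 4.6e-05) and -1.08 (limma adjusted p = 0.00068). The D-ME-iPSC call was lost in 7 of the 9 fits without an array, those without ME replicate 3 or any iPSC-derived array (adjusted p 0.052 to 0.13).

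That fall rested on part of the gene's probe sets. Of its 3 probe sets, 2 hold identical values on all 9 arrays, 8.87, 6.42 and 7.58 in ME cells, 7.89, 8.01 and 8.28 in D-ME-iPSCs and 9.71, 9.62 and 9.87 in D-TF-iPSCs. They carried the fall, at -2.11 and -1.67. The third read 9.20, 9.92 and 9.53 in ME cells, 9.53, 9.43 and 9.69 in D-ME-iPSCs and 9.72, 9.38 and 9.27 in D-TF-iPSCs, with groups that overlapped and a difference of 0.09 in both comparisons. With the identical pair counted once, an alternative chosen after seeing the data, the gene fell by 1.01 and 0.79 and stayed called (limma adjusted p = 0.0085 and 0.029). With the brightest probe set alone it was 0.09 and 0.09. All 11 probe sets shared among H3 genes name Hist2h3c1, and each of them had a positive difference, from 0.08 to 0.37 in ME cells and from 0.42 to 0.56 in D-ME-iPSCs. Without ME replicate 1, 8 of the 11 were positive and 3 negative in ME cells, from -0.04 to 0.31.

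**Figure D3:**
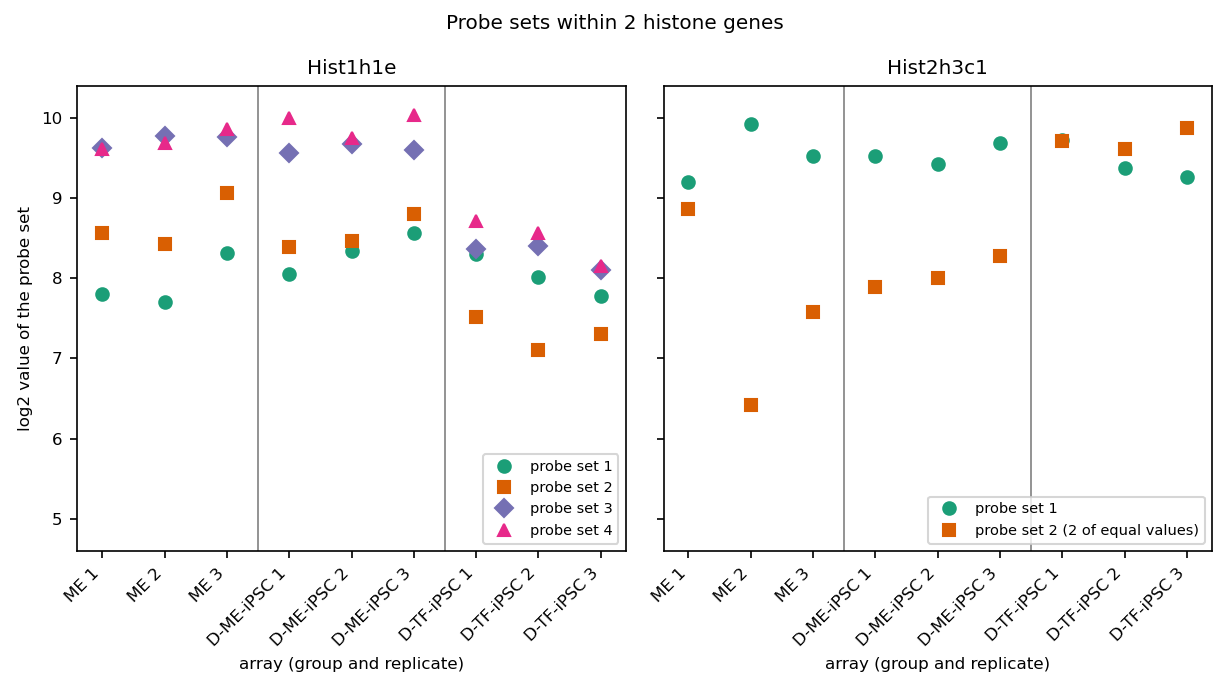
Points are the log2 values of each probe set of Hist1h1e (left, 4 probe sets) and Hist2h3c1 (right, 3 probe sets, 2 of them with equal values) on the 9 arrays. In Hist1h1e 3 probe sets are lowest on the D-TF-iPSC arrays, and in Hist2h3c1 the equal pair is highest there while the third probe set, from 9.20 to 9.92, shows no such order.

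Hist2h3c2, its neighbour in the same locus, was at 5.94, 5.19 and 5.90 in ME cells, 5.34, 5.20 and 5.49 in D-ME-iPSCs and 5.88, 5.76 and 6.00 in D-TF-iPSCs. The D-ME-iPSC arrays lay below D-TF-iPSCs and the ME arrays overlapped them. The difference in D-ME-iPSCs was -0.54 ± 0.20, not called with all arrays (limma adjusted p = 0.11) and called without ME replicate 1 (limma adjusted p = 0.037). Hist1h3d, of the Hist1 locus, went the other way, at 9.88, 10.46 and 10.52 in ME cells, 10.10, 10.12 and 9.86 in D-ME-iPSCs and 9.73, 9.72 and 9.74 in D-TF-iPSCs. Both groups lay above D-TF-iPSCs. Its rise of 0.56 ± 0.17 in ME cells was just short of the threshold (limma adjusted p = 0.051; 0.76 and 0.00024 without ME replicate 1), and the 0.30 ± 0.17 in D-ME-iPSCs passed only without ME replicate 1 (limma adjusted p = 0.33 and 0.034). Hist1h3a and Hist1h3f, both on 1 probe set at 4.90 or less on every array, differed by 0.04 to 0.47 with no call on all arrays, and Hist1h3a passed in D-ME-iPSCs without ME replicate 1 (0.35; limma adjusted p = 0.037).

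H4 genes were positive in 10 of 10 cases in ME cells, with a median of 0.26 (0.52 without ME replicate 1), and in 8 of 10 in D-ME-iPSCs, with a median of 0.06. H4 forms the central tetramer of the nucleosome with H3. Hist1h4d gave 10.09, 9.94 and 10.19 in ME cells, 10.04, 10.26 and 10.22 in D-ME-iPSCs and 9.50, 9.42 and 9.18 in D-TF-iPSCs. The gap between D-TF-iPSCs and both other groups was wider than the spread within any group. The rise was 0.70 ± 0.12 (SE; limma adjusted p = 0.0046) in ME cells and 0.81 ± 0.12 (limma adjusted p = 0.0026) in D-ME-iPSCs, 1.63-fold and 1.75-fold, and both calls held without any single array.

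Hist1h4f gave 6.84, 6.59 and 7.10 in ME cells, 6.53, 6.74 and 6.68 in D-ME-iPSCs and 5.95, 5.69 and 6.32 in D-TF-iPSCs. Both groups again lay above D-TF-iPSCs. It rose by 0.86 ± 0.18 (limma adjusted p = 0.012) and 0.67 ± 0.18 (limma adjusted p = 0.040). The ME call was lost without D-TF-iPSC replicate 2 (adjusted p = 0.051) and the D-ME-iPSC call without any D-ME-iPSC array or D-TF-iPSC replicate 1 or 2 (adjusted p 0.082 to 0.15). Hist1h4a was called in D-ME-iPSCs, where it stood at 7.16, 7.01 and 7.37 against 6.66, 6.80 and 6.48 in D-TF-iPSCs and 6.90, 6.84 and 6.61 in ME cells. The D-ME-iPSC arrays lay above all others. Its rise of 0.53 ± 0.14 (limma adjusted p = 0.031) was lost without D-ME-iPSC replicate 1 or 3 or any D-TF-iPSC replicate (adjusted p 0.053 to 0.13), and in ME cells it differed by 0.14 ± 0.14.

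For several other H4 genes the result turned on ME replicate 1. Hist1h4c gave 5.63, 6.99 and 6.88 in ME cells, 6.09, 6.24 and 6.53 in D-ME-iPSCs and 6.34, 6.08 and 6.34 in D-TF-iPSCs. ME replicates 2 and 3 were above every other array and ME replicate 1 was below every other. Its difference in ME cells was 0.25 ± 0.32 with all arrays (limma adjusted p = 0.68) and 0.68 without ME replicate 1 (limma adjusted p = 0.0034). Hist1h4i, Hist1h4j and Hist2h4 likewise passed in ME cells only without that array, at 0.49, 0.68 and 0.34 (limma adjusted p = 0.018, 0.020 and 0.029). Hist4h4 lay between 6.80 and 7.06 on all arrays and Hist1h4h between 5.01 and 5.43, with no call for either.

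Some probe sets match several histone genes at once. Histone genes of 1 class have nearly equal coding sequences, and 42 probe sets name only histone genes and more than 1 of them. Most stay within a class, while 11 name H2A together with H3 genes and 1 names an H1 and an H2B gene. They hold 33 distinct sets of values, since some repeat others exactly. Their differences from D-TF-iPSCs were positive in 38 of 42 cases in ME cells (median 0.29) and in 39 of 42 in D-ME-iPSCs (median 0.57), where the median over all 241576 probe sets was -0.02 and 0.00. Leaving out ME replicate 1 gave 35 of 42 in ME cells, with a median of 0.15. The 11 that name H2A with H3 genes were positive in 8 cases in each comparison. In ME cells 5 were called higher and 0 lower, beside 3.3% and 3.55% of all probe sets. In D-ME-iPSCs 0 were called in either direction, beside 2.62% higher and 2.39% lower of all probe sets.

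The 5 called were all of those shared among H4 genes. All 5 name Hist1h4a, Hist1h4b and Hist1h4m, and some hold identical values on all 9 arrays, so they are not 5 separate results. Their mean was 10.15, 9.89 and 10.37 in ME cells, 9.95, 10.16 and 10.11 in D-ME-iPSCs and 9.47, 9.36 and 9.19 in D-TF-iPSCs. Both groups lay above D-TF-iPSCs on every array, as in Hist1h4d. The differences were 0.78 to 0.81 in ME cells and 0.71 to 0.76 in D-ME-iPSCs. Without ME replicate 1 all 5 were called in both comparisons, beside 7.16% of all probe sets called higher in ME cells and 5.84% in D-ME-iPSCs.

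H2A, H2B and H3 were ordered differently, with ME replicate 2 low. The 11 probe sets shared within H2A averaged 10.13, 9.46 and 10.12 in ME cells, 10.18, 10.44 and 10.32 in D-ME-iPSCs and 9.72, 9.64 and 9.63 in D-TF-iPSCs. ME replicate 2 was below all D-TF-iPSC arrays, and the other ME arrays and all D-ME-iPSC arrays were above them. The 3 shared within H2B, at 8.75, 8.02 and 8.56, then 8.75, 8.72 and 8.77, then 8.18, 8.23 and 8.19 in the same group order, and the 11 shared within H3, at 8.48, 7.96 and 8.47, then 8.47, 8.63 and 8.52, then 8.10, 8.00 and 8.05, showed the same arrangement of arrays. In H4 ME replicate 2 was the lowest ME array too, but stood above D-TF-iPSCs.

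**Figure D4:**
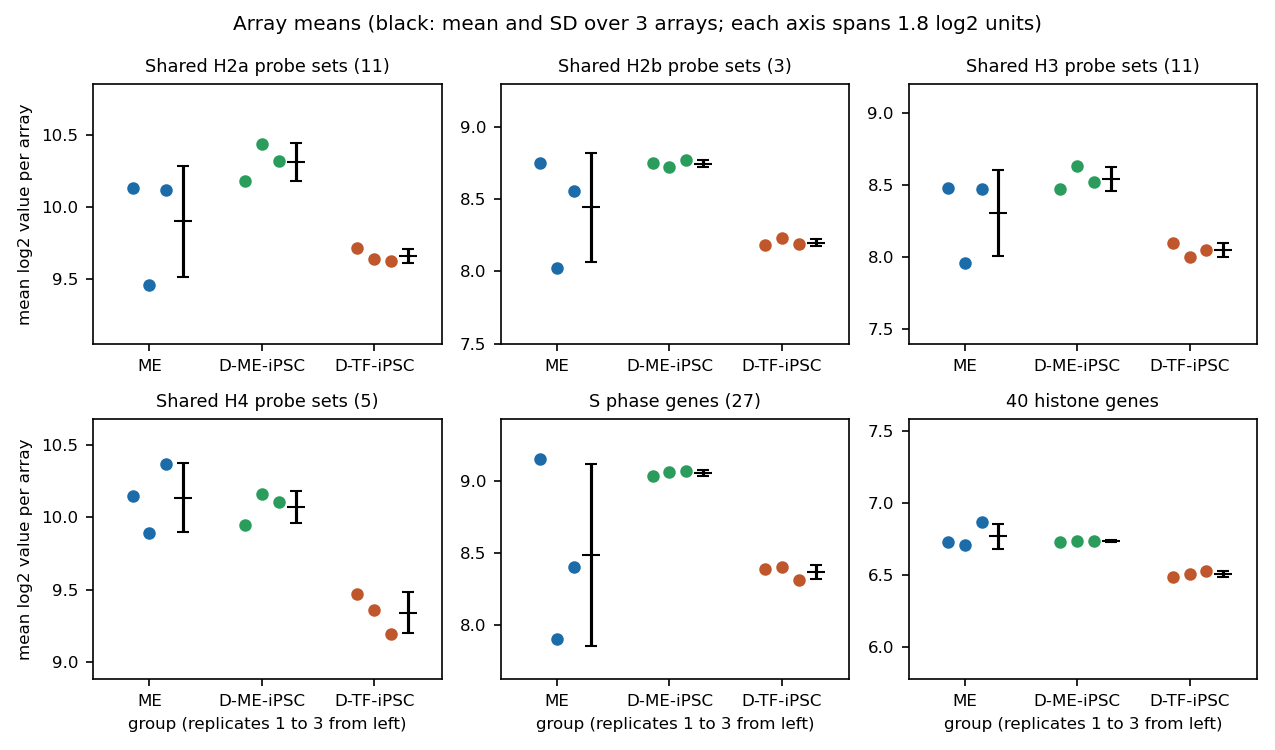
Points are array means of log2 values for probe sets shared within H2A, H2B, H3 and H4, for 27 S phase genes and for the 40 histone genes, with the mean and SD over 3 arrays in black and axes of equal span. D-ME-iPSC points lie above D-TF-iPSC points in all 6 panels, and ME replicate 2 (7.90 for S phase genes) is the lowest ME array in each.

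Genes of the S phase, in which histone mRNA is made, were set beside these values. Of 27 measured genes for DNA replication and its precursors, 9 were higher in D-ME-iPSCs and 3 in ME cells, with 0 lower in both. Of all genes, 6.83% and 7.5% were called higher. The median difference of the 27 was 0.76 in D-ME-iPSCs and 0.18 in ME cells, and -0.12 in ME cells without ME replicate 1. Without that array 5 were higher and 5 lower in ME cells, beside 16.4% and 22.8% of all genes. In D-ME-iPSCs 18 were then higher, beside 15.5% of all genes. Mcm4, a subunit of the replicative helicase, rose by 1.30 ± 0.37 in D-ME-iPSCs (limma adjusted p = 0.048). Mcm3, another subunit, differed by 1.25 ± 0.44 there (limma adjusted p = 0.11), which passed without ME replicate 1 (limma adjusted p = 0.0014). Rrm2, of ribonucleotide reductase, ranged within ME cells from 6.68 in replicate 2 through 7.93 in replicate 3 to 10.54 in replicate 1, which is a wider range than any histone gene had. Its difference in ME cells was -1.24 with all arrays (limma adjusted p = 0.33) and -2.32 without ME replicate 1 (limma adjusted p = 0.00013). The list's mean was 9.15, 7.90 and 8.40 in ME cells, 9.03, 9.06 and 9.07 in D-ME-iPSCs and 8.39, 8.40 and 8.31 in D-TF-iPSCs.

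The order of arrays was thus not the same for the S phase list and the mean of the 40 histone genes. On ME replicate 2 the S phase mean was below all D-TF-iPSC arrays. The mean of the 40 histone genes, 6.71, was above them (6.49 to 6.53). The histone mean was 6.73 and 6.87 on ME replicates 1 and 3 and 6.73 to 6.74 in D-ME-iPSCs. On ME replicate 2 the probe sets shared within H2A, H2B and H3 were below all D-TF-iPSC arrays, as the S phase mean was. So was the mean of the H3 genes (6.34 against 6.53 to 6.72), but these genes parted on that array. Hist2h3c1 (7.59 against 9.54 to 9.71) and Hist2h3c2 (5.19 against 5.76 to 6.00) were below all D-TF-iPSC arrays. Hist1h3d (10.46 against 9.72 to 9.74) and Hist1h3a (4.15 against 3.87 to 4.02) were above them, and Hist1h3f (4.34) met their range. The means of the H1, H2A and H4 genes (7.14, 5.68 and 7.69) and of the probe sets shared within H4 were above all D-TF-iPSC arrays. The mean of the H2B genes, 6.74, met the D-TF-iPSC range (6.69 to 6.74). Mitosis genes followed the S phase list, with means of 9.79, 8.06 and 9.18 in ME cells, 9.60 to 9.66 in D-ME-iPSCs and 8.84 to 8.99 in D-TF-iPSCs. Of 16, 1 was called in D-ME-iPSCs, Ube2c at 1.30 ± 0.33 (limma adjusted p = 0.030), and 0 in ME cells. Leaving out ME replicate 1 gave 8 higher in D-ME-iPSCs and 2 lower in ME cells, beside 15.5% and 22.8% of all genes. Whether dividing cells account for the histone differences was not tested.

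Genes that make and cut histone mRNA were called in both comparisons. Of 14 genes for its transcription and 3' end processing, 2 were higher and 1 lower in ME cells and 3 were higher in D-ME-iPSCs, with median differences of -0.03 and 0.17. The shares called higher lay above the 7.5% and 6.83% of all genes called higher, on counts of 2 and 3 genes. Eri1, a nuclease that acts on the histone stem-loop, rose by 0.53 in ME cells (limma adjusted p = 0.0062) and 0.60 ± 0.10 in D-ME-iPSCs (limma adjusted p = 0.0039). Pou2f1, which binds the octamer motif of H2B promoters, rose by 0.58 (limma adjusted p = 0.0061) and 0.40 ± 0.11 (limma adjusted p = 0.037). E2f1, an activator of S phase genes, fell by 0.60 in ME cells (limma adjusted p = 0.0097) and differed by 0.10 ± 0.12 in D-ME-iPSCs. Slbp and Npat, which serve the histone genes in particular, were not called with all arrays. Slbp differed by 0.37 ± 0.12 in D-ME-iPSCs (limma adjusted p = 0.077) and passed there without ME replicate 1 (limma adjusted p = 0.0065). When ME replicate 1 was left out, 3 genes of this list were higher and 5 lower in ME cells, beside 16.4% and 22.8% of all genes. In D-ME-iPSCs 5 were then higher, beside 15.5% of all genes.

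Of 18 histone chaperone and assembly genes, 2 were higher in ME cells and 3 in D-ME-iPSCs, with 0 lower and median differences of 0.06 and 0.23. These shares too lay above the 7.5% and 6.83% of all genes called higher, on counts of 2 and 3 genes. Nasp, a chaperone of H1 and of H3 with H4, rose by 0.78 in ME cells (limma adjusted p = 0.045) and 1.14 ± 0.22 in D-ME-iPSCs (limma adjusted p = 0.0093). Hat1, which acetylates new H4, rose by 0.56 (limma adjusted p = 0.036) and 0.78 ± 0.15 (limma adjusted p = 0.0096). Asf1b, a carrier of H3 with H4, differed by 1.01 ± 0.34 in D-ME-iPSCs (limma adjusted p = 0.092) and 0.06 in ME cells. With ME replicate 1 left out, it was called in D-ME-iPSCs (limma adjusted p = 0.00070) and its ME difference was -0.41 (limma adjusted p = 0.080). Without ME replicate 1, 5 of the 18 were higher and 6 lower in ME cells, beside 16.4% and 22.8% of all genes. Their median difference in ME cells was then -0.19. In D-ME-iPSCs 6 were higher, beside 15.5% of all genes.

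ME cells were not separated from D-ME-iPSCs with all arrays. Limma called 0 histone genes and 0% of all genes, while before adjustment 10 histone genes and 3857 genes in all lay under 0.05, and the methods' test of 2 groups gave 4 histone genes unadjusted and 0 adjusted. The 40 differences split evenly, 20 above and 20 below 0, from -0.78 to 0.64. Without ME replicate 1, 8 histone genes were called higher in ME cells and 6 lower, beside 15.1% and 23.6% of all genes. Hist1h4i at 0.81, Hist1h2ac at 0.80, Hist1h1t at 0.74, Hist1h4c at 0.65, Hist1h4j at 0.64, Hist1h2be at 0.59, Hist1h3d at 0.46 and Hist1h2bc at 0.39 were higher. Hist2h2bb at -0.78, Hist1h2bh at -0.77, Hist2h3c1 at -0.65, Hist1h2ag at -0.64, Hist1h2bm at -0.59 and Hist1h4a at -0.46 were lower.

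Promoters of the genes that carried these results were read from RefSeq (GRCm38.p6), in which all 40 genes were found, 34 of them with a promoter in the table. A window of 300 bases, 250 before the annotated start and 50 after it, was searched on both strands for the TATA box letters TATAAA, for the CCAAT box, for the octamer ATTTGCAT and for the H1 box AAACACA. The 150 bases before the start are shown on the gene's strand for the genes called in both comparisons, with these motifs in capitals, so that the 4 that rose can be read beside the 1 that fell.
Hist1h1e, chr13:23622559-23622708, minus strand: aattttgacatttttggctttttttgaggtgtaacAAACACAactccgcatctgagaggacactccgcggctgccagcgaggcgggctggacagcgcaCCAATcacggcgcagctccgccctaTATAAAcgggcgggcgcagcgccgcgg
Hist1h2ab, chr13:23750938-23751087, plus strand: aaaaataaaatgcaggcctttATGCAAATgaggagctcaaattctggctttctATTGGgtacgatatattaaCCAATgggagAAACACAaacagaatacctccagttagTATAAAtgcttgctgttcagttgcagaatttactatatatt
Hist1h4d, chr13:23581418-23581567, plus strand: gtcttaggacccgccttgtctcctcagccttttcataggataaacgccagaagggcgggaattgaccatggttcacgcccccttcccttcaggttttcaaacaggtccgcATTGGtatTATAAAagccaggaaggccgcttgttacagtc
Hist1h4f, chr13:23551669-23551818, minus strand: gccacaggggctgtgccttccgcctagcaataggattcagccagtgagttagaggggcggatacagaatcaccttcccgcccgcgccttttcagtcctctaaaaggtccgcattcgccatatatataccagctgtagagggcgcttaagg
Hist2h3c1, chr3:96246535-96246684, plus strand: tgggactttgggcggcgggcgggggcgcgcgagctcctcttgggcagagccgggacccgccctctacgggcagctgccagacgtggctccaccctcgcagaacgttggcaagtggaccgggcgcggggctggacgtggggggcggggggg
Hist1h1e holds an H1 box, then the CCAAT box and then the TATA box toward the start, and Hist1h2ab an octamer, a pair of CCAAT boxes in opposite directions, an H1 box and the TATA box. Hist1h4d holds the CCAAT box on the other strand just before its TATA box, and in Hist1h4f and Hist2h3c1 none of the letters searched occur in the stretch shown. The TATA box letters of Hist1h4f and the CCAAT box of Hist2h3c1 were found in the rest of the 300 base window, and are counted in the shares that follow. The TATA box letters were found in 61.8% of the 34 histone promoters and in 13.6% of all 32851 promoters of the same length, and the CCAAT box in 82.4% and 37.4%. By class the CCAAT box was in 100% of the H1, H2A, H2B and H3 promoters. In H4 it was in 3 of 9, or 33.3%, which is below the share of all promoters. The octamer was found in 6 of 10 H2A and 5 of 7 H2B promoters and in 0 of H1, H3 and H4, against 1.74% of all promoters. The H1 box was found in 4 of 5 H1 promoters and in 3 others, 20.6% of the 34 against 7.18% of all. H2A and H2B genes often lie head to head and share a promoter, so these windows are not all separate stretches, and a match of letters is a description of the sequence only.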

How the data were processed

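Biotin-labelled RNA of 9 samples had been measured on Affymetrix mouse gene arrays. The authors deposited log2 values for exon-level probe sets; the submitters' processing notes name RMA, a method that removes background, normalizes and combines probes, and Partek, with no version or setting. Of 241576 probe sets, 212138 carry 1 symbol and were used, 4672 carry several and 24766 none. Genes were means of their probe sets (median 8 a gene, 1 for 25 of the 40 histone genes, at most 5), with no filter on dim genes. Limma 3.58.1 (R 4.3.3) estimated the mean of each group from that group's own arrays, and was checked on simulated data. For each gene it estimated 1 spread, shared by all 9 arrays. An ME array thus affects the p-values of D-ME-iPSCs against D-TF-iPSCs, a comparison it is not part of, but not the differences. Only the number of arrays is known of the precision. Means were ranked within a class only to choose genes to describe.

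The histone genes, the gene lists and the alternatives were chosen with earlier results of these data known. Described were, in each class, the 3 genes with the largest difference from D-TF-iPSCs, those with the highest and lowest mean, all genes outside Hist1, testis forms and every called gene, and from each list the 3 genes with the largest difference; other genes named were chosen after their values were seen. From other lists, 0 of 8 testis germ cell, 2 of 7 immune (Lyz2 and Emr1, lower in both comparisons) and 2 of 5 endothelial markers (lower in ME cells) were called; without ME replicate 1 the immune markers gave 2 higher and 3 lower in ME cells and 4 lower in D-ME-iPSCs, and the endothelial markers 3 and 2 lower. Figures were drawn with matplotlib. No array was left out. The authors' chromatin, methylation and PCR measurements are not analysed here.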

Additional observations from a re-analysis of the deposited data

How the results depend on the processing

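The counts of histone genes called were 8 (ME cells against D-TF-iPSCs), 6 (D-ME-iPSCs against D-TF-iPSCs) and 0 (ME cells against D-ME-iPSCs). Leaving out 1 array gave 5 to 16, 3 to 14 and 0 to 14. The highest counts came without ME replicate 1, and D-ME-iPSCs gave 11 without ME replicate 2 and 3 when D-TF-iPSC replicate 1 or 2, D-ME-iPSC replicate 1 or D-ME-iPSC replicate 3 was left out; ME cells gave 5 without D-TF-iPSC replicate 2. Genes above the median level gave 4 of 15 tested in ME cells, and the median of the probe sets 3 in D-ME-iPSCs. Adding probe sets shared among histone genes gave 14 and 24 of 62 symbols, many of which then rest on the same probe sets. Fits of the 6 arrays compared gave 5 and 18. The methods' Student's test gave 14 in D-ME-iPSCs and 4 in ME cells against D-ME-iPSCs unadjusted, and 0 in ME cells and 11 in D-ME-iPSCs adjusted. Array weights, which gave ME replicates 1, 2 and 3 weights of 0.0658, 0.142 and 8.98 and so rest on 1 ME array, gave 27, 21 and 27. Hist2h3c1 turned to 0.09 and 0.09 with the brightest of its own 3 probe sets and to 0.01 and 0.25 with shared probe sets added. The first reflects disagreement among the gene's own probe sets. Over all other settings of the named genes, 51 calls were lost and 111 gained. Quantile normalization, median centring, the brightest probe set, a fit per probe set, a trended and robust spread, a fold of at least 1.5 and identical probe sets counted once (added after seeing the data) kept the counts within 1.5 times. With the replicate number as a block the counts were 7, 5 and 0. Same-numbered arrays correlated at -0.179 to 0.157 in their deviations, which shows no pairing by number. With 3 arrays a group and ME replicate 1 apart, this cannot exclude pairing. Another background correction was not run because the values are already corrected. Without intensities, signal over background is unknown, so dim genes such as Hist2h2ac cannot be told from background.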

Other observations

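Of 14 measured genes for histone variants that cells make outside S phase, 1 was called with all arrays, higher in both comparisons against D-TF-iPSCs; without ME replicate 1, 2 were higher and 1 lower in ME cells and 5 higher and 1 lower in D-ME-iPSCs. H3f3b, which encodes the replacement histone H3.3, gave 11.57, 12.01 and 12.22 in ME cells, with means of 11.54 in D-ME-iPSCs and 10.85 in D-TF-iPSCs, and rose by 1.08 (limma adjusted p = 0.0016) and 0.68 ± 0.15 (limma adjusted p = 0.017). H3f3a, another gene for the same protein, differed by 0.07 and -0.01. H2afx, the variant phosphorylated at DNA breaks, differed by 0.73 ± 0.36 in D-ME-iPSCs (limma adjusted p = 0.25; 0.0052 without ME replicate 1) and, within ME cells, stood at 8.97 in replicate 1 and 7.24 and 7.80 in replicates 2 and 3. H2afy2, a macroH2A gene, differed by -0.84 in ME cells (limma adjusted p = 0.079; -1.14 and 0.0020 without ME replicate 1) and -0.54 ± 0.28 in D-ME-iPSCs (limma adjusted p = 0.30).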
